A study of Mus musculus with 36 samples.

Results

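The genes described are 7 mouse genes of transforming growth factor beta (TGF-beta) signalling, measured in lungs exposed to low oxygen. They were chosen by gene symbol: spots whose platform annotation gave exactly 1 symbol among Tgfbr3, Pmepa1, Smurf2, Tgfbr1, Tgfbr2, Tgfb1, Smad2, Smad3, Smad7 and Ltbp1. The rule found 8 spots of 15388 on the array, 1 for each gene and 2 for Tgfbr1. No spot carried Tgfb1, Smad2 or Smad7 as its single symbol, and these genes were not analysed here. The samples were whole lungs of BALB/c mice kept at 0.5 atm for 1, 3, 7, 14 or 21 days, and lungs of mice that had 21 such days and then 1, 3, 7 or 14 days at sea-level pressure (days 22, 24, 28 and 35 below). Time-matched control mice provided the comparison on spotted 2-colour cDNA arrays, which hybridise both RNAs, in different dyes, to the same slide. Every RNA was a pool of 5 lungs, and each of the 9 days had 4 arrays, 36 in all. The labels give no age, no genetic change and no drug for any group. The reported value is the log2 ratio of hypoxic or recovering lung to control lung, so 0 means no difference and -1 means that the level was 0.5 times that of the control.

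TGF-beta is secreted in a latent complex, is presented to its receptors at the cell surface, and acts through a pair of receptor kinases that phosphorylate Smad proteins. Part of its output is feedback: genes that the pathway turns on include inhibitors that remove its receptors or Smads. In the lung the pathway is known for its part in matrix deposition and in the remodelling of pulmonary arteries.

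Sign, depth and tissue mixture set limits that apply throughout. The labels name the hypoxic sample and Cy5 first, so a positive value likely, not certainly, means higher in the hypoxic lung, and no dye swap is recorded. Arrays held values for 14186 to 15042 spots, array medians lay between -0.016 and 0.050, and precision is limited by the number of arrays. Replicates 1 and 2 of a day, like replicates 3 and 4, resembled each other (median r = 0.71 across features, 18 pairs) more than arrays taken across these pairs (median r = 0.30, 36 pairs), and the lowest r among all 630 array pairs was -0.30, between day 3 and day 22. In whole lung, fewer cells of a type and less RNA per cell cannot be told apart. Ratios carry no level, so the tissue could not be checked by the presence of its markers. Among marker genes over the hypoxia phase, 6 of 7 measured smooth muscle genes and 3 of 5 endothelial genes passed as higher, and 3 of 6 leukocyte genes passed as lower, with list medians of 0.27, 0.27 and -0.20. Erythroid genes had the highest list median, 0.34, with 2 of 4 higher and 1 lower. Of 8 alveolar epithelial genes 4 passed as higher and 2 as lower (median 0.10), of 9 fibroblast and pericyte genes 4 and 2 (0.09), and of 3 airway genes none and 1 (-0.15). These marker counts stand beside 24.7% of all features that passed as higher and 17.7% as lower over the hypoxia phase. Over recovery the list medians were -0.06 for smooth muscle, -0.07 for endothelium, -0.26 for leukocytes, 0.10 for erythroid cells, -0.09 and -0.11 for alveolar and airway epithelium, and -0.01 for fibroblasts and pericytes. The part of cell mixture in the results below was not tested.

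Over the 5 hypoxia days, the co-receptor gene Tgfbr3, the ubiquitin ligase gene Smurf2 and the latency gene Ltbp1 were lower than in controls, and the feedback gene Pmepa1 and the signal transducer gene Smad3 were higher. The receptor kinase genes Tgfbr1 and Tgfbr2 did not pass. The test was limma on the means of the days, adjusted by Benjamini-Hochberg over 12159 features, with 0.05 as the threshold. The 2 higher and 3 lower genes of 7 stand against 42.4% of all features that passed in either direction, 24.7% higher and 17.7% lower. The 7 genes had a median absolute log2 ratio of 0.38, against 0.11 for all features. Over the 4 recovery days only Tgfbr3 passed, as lower, where 4.77% of all features passed, 1.65% higher and 3.12% lower. Of the features that passed in recovery 34.7% were higher, and 47.5% when arrays were scaled to a common spread. Under that setting 5 of the 7 genes passed in recovery, where 26.3% of all features passed. The median absolute log2 ratio in recovery was 0.21 for the 7 genes and 0.085 for all features. The 7 genes were chosen with earlier results of these data known. Their counts and sizes beside those of all features are thus a description, not a test.

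**Figure D1:**
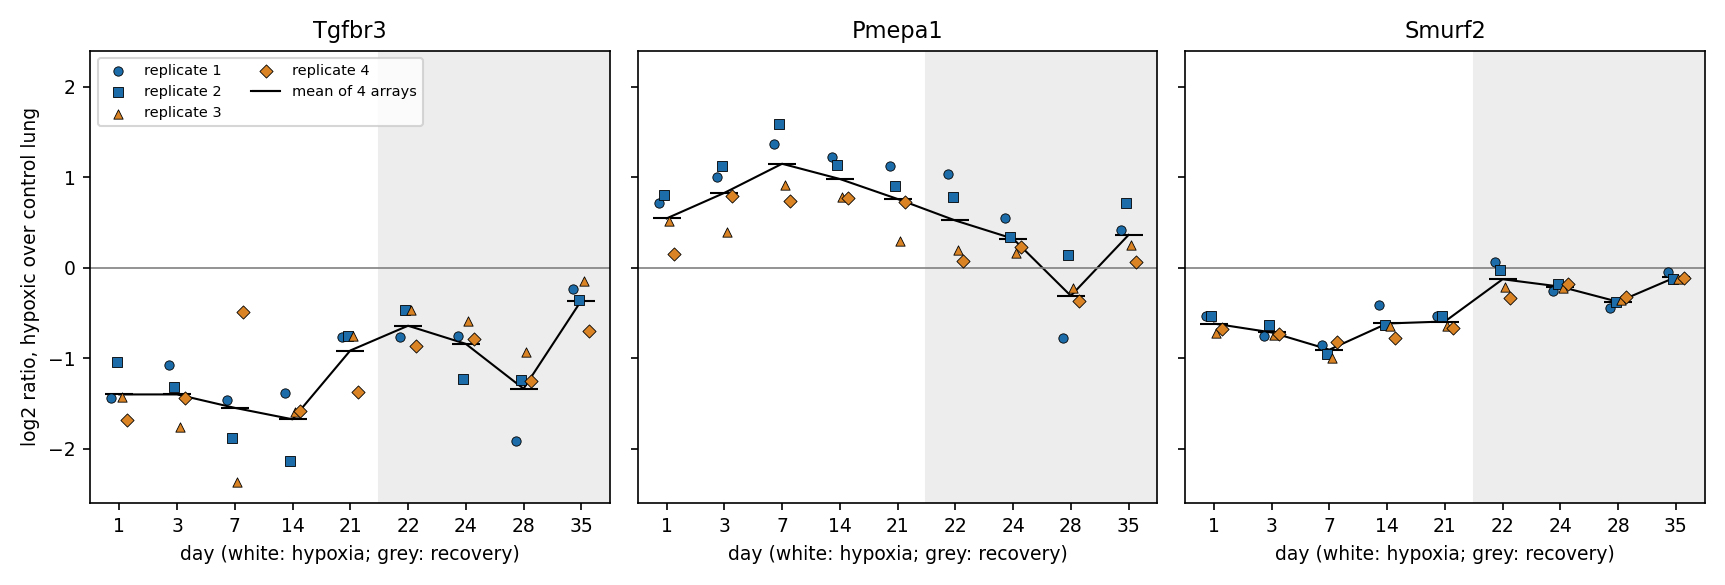
Log2 ratio of hypoxic or recovering lung to control lung (y axis) by day (x axis) for Tgfbr3, Pmepa1 and Smurf2. Points are single arrays, marked by replicate, the line joins the means of the 4 arrays of a day, and grey marks recovery. Tgfbr3 lies below 0 on all 36 arrays, Pmepa1 lies above 0 on the 20 hypoxia arrays, and Smurf2 is nearest to 0 at days 22, 24 and 35.

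Tgfbr3 encodes betaglycan, a co-receptor with no kinase of its own that binds TGF-beta and presents it to the type II receptor, and that can also bind the ligand when shed from the cell. Its log2 ratios were -1.44, -1.04, -1.43 and -1.69 at day 1. At day 3 they were -1.08, -1.32, -1.76 and -1.45. At day 7 they were -1.46, -1.88, -2.38 and -0.48. All of these arrays were below 0, and day 7 held both the lowest and the highest array of the hypoxia phase. At day 14 the log2 ratios of Tgfbr3 were -1.39, -2.14, -1.59 and -1.58, and at day 21 they were -0.77, -0.76, -0.76 and -1.38. Day 21 thus had 3 arrays close together and 1 lower. Over the 5 hypoxia days Tgfbr3 averaged -1.39 ± 0.29 (SD over days), which is 0.382 times the control level (95% confidence interval of the log2 ratio -1.65 to -1.12, limma adjusted p = 8.9e-05). By absolute size this was rank 9 among all 12159 features.

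In recovery the log2 ratios of Tgfbr3 were -0.77, -0.47, -0.47 and -0.86 at day 22, and -0.76, -1.24, -0.58 and -0.79 at day 24. At day 28, they were -1.92, -1.24, -0.93 and -1.26. Day 35 gave -0.24, -0.36, -0.15 and -0.70. All 16 recovery arrays were below 0, with the day 28 mean (-1.34) close to that of day 3 (-1.40) and day 35 nearest to 0. The recovery mean of Tgfbr3 was -0.80 ± 0.41 (SD over 4 days), 0.576 times control (limma adjusted p = 0.032), rank 7 by absolute size. This call was lost when day 22, 24 or 28, or day 3, was left out (adjusted p = 0.053, 0.13, 0.13 and 0.055), and the mean without day 28 was -0.62. Ordered from day 14 through 7, 1, 3, 28, 21, 24 and 22 to 35, all 8 neighbouring pairs of days had overlapping arrays, so no step in that order stands clear of the spread.

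Pmepa1 encodes a membrane protein that binds Smad2 and Smad3, keeps them from the receptor, and is itself induced by TGF-beta. Its log2 ratios were 0.72, 0.80, 0.51 and 0.15 at day 1, and 1.0, 1.13, 0.40 and 0.79 at day 3. Day 7 gave 1.36, 1.59, 0.92 and 0.73. Day 14 gave 1.23, 1.14, 0.78 and 0.78, and day 21 gave 1.12, 0.90, 0.30 and 0.72. All 20 hypoxia arrays were above 0, with day 7 the highest, and at every hypoxia day the mean of replicates 1 and 2 exceeded that of replicates 3 and 4. Pmepa1 averaged 0.85 ± 0.23 over the hypoxia days (SD, n = 5), 1.81 times control (limma adjusted p = 0.00023). Replicates 1 and 2 averaged 1.10 and replicates 3 and 4 averaged 0.61, and each pair alone kept the call.

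The recovery log2 ratios of Pmepa1 were 1.04, 0.78, 0.19 and 0.08 at day 22, and 0.55, 0.34, 0.16 and 0.23 at day 24. Those of day 28 were -0.78, 0.14, -0.22 and -0.37, and those of day 35 were 0.42, 0.71, 0.25 and 0.06. Thus 13 of 16 recovery arrays were above 0, and the 3 below 0 were all from day 28. The recovery mean of Pmepa1 was 0.22 ± 0.37 (SD over 4 days), which did not pass (limma adjusted p = 0.22). In the order of its days, Pmepa1 differed by over 2 standard errors only between day 24 and day 28, by 0.63 ± 0.22 (SE), and 7 of the 8 neighbouring pairs overlapped in their arrays. The SE between 2 days, here and below, measures only the spread between arrays, and the days were ordered by these same means.

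Smurf2 encodes a ubiquitin ligase that binds Smad7 and marks the type I receptor and Smads for destruction. Its hypoxia log2 ratios were -0.54, -0.53, -0.72 and -0.68 at day 1, and -0.75, -0.64, -0.75 and -0.73 at day 3. Day 7 gave -0.86, -0.95, -1.0 and -0.82. Day 14 gave -0.41, -0.64, -0.64 and -0.77, and day 21 gave -0.54, -0.53, -0.64 and -0.67. The 20 arrays were all below 0, and the 4 arrays of day 7 were lower than every array of the other hypoxia days. Smurf2 averaged -0.69 ± 0.13 over the hypoxia days (SD, n = 5), 0.620 times control (limma adjusted p = 5.8e-05).

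In recovery, the log2 ratios of Smurf2 were 0.06, -0.03, -0.21 and -0.33 at day 22, and -0.26, -0.18, -0.22 and -0.17 at day 24. At day 28, Smurf2 had -0.45, -0.38, -0.36 and -0.32, and at day 35 it had -0.05, -0.13, -0.13 and -0.11. Recovery arrays were closer to 0 than hypoxia arrays: 1 of the 20 hypoxia arrays fell inside the range of the 16 recovery arrays. How many of all features overlap so little was not counted. The recovery mean was -0.20 ± 0.12 (SD over 4 days), and it did not pass (limma adjusted p = 0.065). From low to high, 3 steps between neighbouring days of Smurf2 had separate arrays and exceeded 2 standard errors: day 7 to day 3, day 21 to day 28, and day 28 to day 24, by 0.19, 0.22 and 0.17 (SE 0.079 each). Again the SE measures only the spread between arrays, and the order was taken from the same means.

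Of the receptor kinases, Tgfbr2 encodes the type II receptor, which binds TGF-beta first and then activates the type I receptor. It averaged 0.08 ± 0.13 over the hypoxia days and -0.21 ± 0.16 over the recovery days (SD, n = 5 and 4), with limma adjusted p = 0.31 and 0.073. All 5 hypoxia means were above all 4 recovery means, and the share of all features whose day means separate by phase was not counted. The lowest hypoxia mean, -0.08 at day 7, exceeded the highest recovery mean, -0.11 at day 22, by 0.03 ± 0.10 (SE), with overlapping arrays. The log2 ratios of Tgfbr2 were 0.20, 0.24, 0.27 and 0.29 at day 21, and -0.64, -0.57, -0.14 and -0.44 at day 28. These were the days on which Tgfbr2 passed alone, as higher (limma adjusted p = 0.039) and as lower (limma adjusted p = 1.8e-05). The day 21 call was lost without any 1 replicate (adjusted p = 0.11 to 0.27).

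Tgfbr1 encodes the type I receptor kinase, which phosphorylates Smad2 and Smad3. The mean of its 2 spots averaged 0.00028 over the hypoxia days, with a 95% confidence interval of -0.11 to 0.11, and 0.09 over the recovery days (limma adjusted p = 1.0 and 0.30). Apart, the spots averaged -0.07 and 0.07 over the hypoxia days, and 0.15 and 0.03 over the recovery days, so they differed in sign in hypoxia. At day 28 the averaged arrays gave 0.30, 0.19, 0.04 and 0.30, the only day on which Tgfbr1 passed (0.21, limma adjusted p = 0.025). That call was lost without replicate 1, 2 or 4 (adjusted p = 0.15, 0.069 and 0.14), with median centring (0.058) and with a common spread (0.15).

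Smad3 encodes the transcription factor that the type I receptor activates. It averaged 0.16 ± 0.09 over the hypoxia days (SD, n = 5, limma adjusted p = 0.013), 1.12 times control, and -0.02 over recovery (limma adjusted p = 0.82). The hypoxia mean was 0.35 in replicates 1 and 2 and -0.02 in replicates 3 and 4, where it did not pass (adjusted p = 0.77). No single day passed for Smad3, and the call over hypoxia was lost without replicate 1, without replicate 2 or without day 3 (adjusted p = 0.083, 0.17 and 0.054).

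Ltbp1 encodes a matrix protein that binds the latent TGF-beta complex and stores it outside the cell. It averaged -0.38 ± 0.26 over the hypoxia days and -0.51 ± 0.44 over the recovery days (SD, n = 5 and 4), with limma adjusted p = 0.028 and 0.054. Its log2 ratios were -0.69, -0.18, -0.87 and -1.10 at day 1, against -0.07, 0.14, -0.51 and 0.47 at day 3. At day 28 they were -1.11, -1.65, -0.73 and -0.51, and at day 35 they were -0.06, -0.03, -0.14 and 0.11. Ltbp1 was thus low at day 1 and lowest at day 28, with days 3 and 35 near 0. The hypoxia call of Ltbp1 was lost without replicate 1 (-0.29, adjusted p = 0.075), with a common spread (-0.33, adjusted p = 0.061), or without day 1, 7, 14 or 21 (adjusted p = 0.05 to 0.11).

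**Figure D2:**
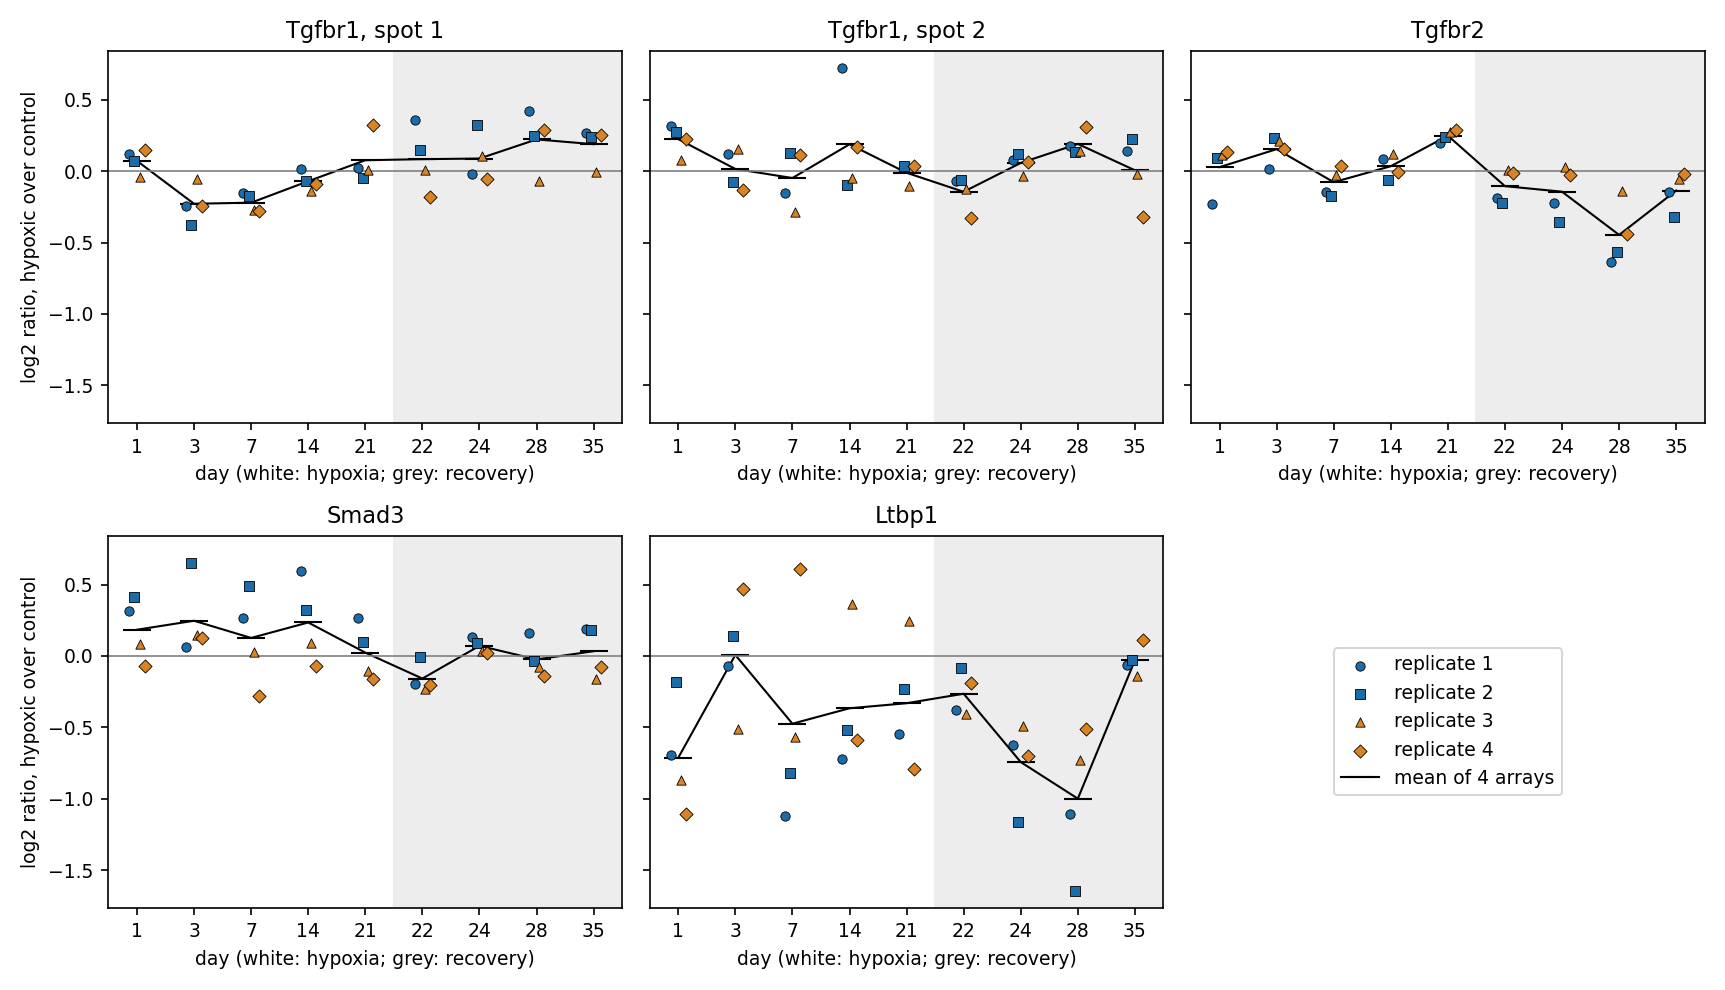
Log2 ratio to control lung (y axis) by day (x axis) for Tgfbr1, Tgfbr2, Smad3 and Ltbp1. The 2 spots of Tgfbr1 have a panel each, points are single arrays marked by replicate, lines join the means of a day's arrays, and grey marks recovery. Tgfbr2 is highest at day 21 and lowest at day 28, and Ltbp1 is lowest at day 28 and near 0 at days 3 and 35.

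Day by day, in fits on the 36 arrays, the adjusted p measures only the spread between arrays of pooled RNA, which may be technical, since the labels name no separate mice behind the arrays of 1 day. Of the 7 genes, 4 passed at day 1, where 19.7% of all features passed, 3 at day 3 (23.4%), 3 at day 7 (36.0%), 3 at day 14 (27.9%) and 4 at day 21 (4.59%). In recovery none passed at day 22 (1.58%), 3 passed at day 24 (2.94%), 5 at day 28 (32.2%) and none at day 35 (3.19%). At an unadjusted p under 0.05 in limma there were 3 of the 7 at day 22, beside 1204 of 12242 features. At day 35 there was 1, beside 1234 of 12359 features. With a common spread Tgfbr3 and Pmepa1 passed on both days (adjusted p = 0.00025 and 0.013 at day 22, 0.012 and 0.016 at day 35). Under that setting 4.87% of all features passed at day 22 and 10.8% at day 35. Tgfbr3, Pmepa1 and Smurf2 passed in limma at each of the 5 hypoxia days, Tgfbr3 and Smurf2 as lower and Pmepa1 as higher. The Pmepa1 call was lost at day 1 without replicate 1, 2 or 3 (adjusted p = 0.06, 0.07 and 0.054) and at day 21 without replicate 1 (0.059). Ltbp1, the fourth gene to pass at day 1, was lost without replicate 1, 3 or 4 (adjusted p = 0.059 to 0.069). At day 24 Tgfbr3, Smurf2 and Ltbp1 passed as lower, with limma adjusted p = 0.0081, 0.035 and 0.04. Leaving out any 1 replicate ended the day 24 calls of Smurf2 (0.10 to 0.26) and Ltbp1 (0.057 to 0.35), and leaving out replicate 1 or 2 ended that of Tgfbr3 (0.073 and 0.18).

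At day 28, the seventh day back at sea-level pressure, 5 of the 7 genes passed beside 32.2% of all features, against 1.58% to 3.19% of all features on the other recovery days. Tgfbr3 (-1.34), Ltbp1 (-1.0), Tgfbr2 (-0.45) and Smurf2 (-0.38) were lower in limma (adjusted p = 2.2e-06, 0.0003, 1.8e-05 and 6.9e-06), and Tgfbr1 (0.21) was higher. Pmepa1 had its only negative day mean there (-0.31, limma adjusted p = 0.13). The array with the widest spread of all 36, with an SD of 0.52 across spots, was replicate 1 of this day. Without that array Tgfbr1 no longer passed at day 28 (adjusted p = 0.15), and the other 4 genes still did. At day 28 the endothelial marker list had a median of 0.05. The other marker lists had medians of -0.17 for smooth muscle, -0.20 for fibroblasts and pericytes, -0.24 each for alveolar and airway epithelium, -0.44 for leukocytes and -0.39 for erythroid cells, and their part in these values was not tested.

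The mean of the hypoxia days minus the mean of the recovery days did not pass for any of the 7 genes (limma), where 0.0329% of all features passed. At an unadjusted p under 0.05 in limma there were 5 of the 7, beside 1843 of 12159 features. With the 36 arrays taken as units 4 of the 7 passed, where 16.8% of all features passed. The difference was -0.49 ± 0.081 for Smurf2 (SE, limma adjusted p = 0.074), 0.63 ± 0.16 for Pmepa1 (0.12), -0.59 ± 0.18 for Tgfbr3 (0.17) and 0.29 ± 0.087 for Tgfbr2 (0.17). For Smurf2, Pmepa1 and Tgfbr2 no hypoxia day mean overlapped a recovery day mean, and how many of all features do so was not counted. The nearest means of the phases were 0.02 ± 0.22 (SE) apart for Pmepa1 and 0.03 ± 0.10 for Tgfbr2, both with overlapping arrays. For Smurf2 they were 0.22 ± 0.079 apart. The SEs of these nearest means come from the spread between arrays, and those of the phase differences from the spread between days. The same difference was -0.09 for Tgfbr1, 0.18 for Smad3 and 0.13 for Ltbp1 (limma adjusted p = 0.59, 0.24 and 0.74).

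The first and the last recovery day were also set against the last hypoxia day. At day 22, Smurf2 had 0.06, -0.03, -0.21 and -0.33, all above its day 21 values of -0.54, -0.53, -0.64 and -0.67. The day 22 minus day 21 difference was 0.47 ± 0.079 (SE), or 1.38-fold, and Smurf2 was the only one of the 7 genes to pass (limma adjusted p = 0.00077), where 0.619% of all features passed. The call was lost without replicate 3 (0.48, adjusted p = 0.057). Day 35 minus day 21 gave 0.49 ± 0.079 for Smurf2, or 1.41-fold, again the only gene to pass (limma adjusted p = 0.00027, against 1.07% of all features). Tgfbr2 also had arrays separate from those of day 21, with differences of -0.35 ± 0.10 at day 22 and -0.38 ± 0.10 at day 35 (SE), without passing (limma adjusted p = 0.16 and 0.057). The arrays of Tgfbr3 were separate at day 35, with a difference of 0.55 ± 0.26 (SE), and it did not pass (limma adjusted p = 0.64). The differences of Pmepa1 were -0.24 at day 22 and -0.40 at day 35 (limma adjusted p = 1.0 and 0.83). Both differences share the day 21 arrays, and the share of all features with separate arrays was not counted.

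Promoter sequence was available in RefSeq (GRCm38.p6) for 5 of the 7 genes, not for Tgfbr3 and Pmepa1. The windows of Smurf2, Ltbp1 and Tgfbr2 are shown because these 3 genes were lower than control together at day 28. Each runs 5′ to 3′ on the gene's strand from base 250 to base 51 before the annotated start. Capitals mark CAGAC, the 5-base Smad-binding element, or its reverse complement GTCTG, and CACGT, the reverse complement of the hypoxia-response core ACGTG. Smurf2 is at chr11:106920766-106920965 on the minus strand, Ltbp1 at chr17:75005279-75005478 on the plus strand, and Tgfbr2 at chr9:116175414-116175613 on the minus strand.
Smurf2: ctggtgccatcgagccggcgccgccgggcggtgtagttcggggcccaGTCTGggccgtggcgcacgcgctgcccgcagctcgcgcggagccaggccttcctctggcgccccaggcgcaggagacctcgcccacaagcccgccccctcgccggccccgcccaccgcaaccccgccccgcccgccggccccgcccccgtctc
Ltbp1: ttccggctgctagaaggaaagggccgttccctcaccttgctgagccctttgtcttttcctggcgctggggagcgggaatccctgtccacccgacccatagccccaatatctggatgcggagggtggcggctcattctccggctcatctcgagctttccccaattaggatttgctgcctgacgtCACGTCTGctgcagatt
Tgfbr2: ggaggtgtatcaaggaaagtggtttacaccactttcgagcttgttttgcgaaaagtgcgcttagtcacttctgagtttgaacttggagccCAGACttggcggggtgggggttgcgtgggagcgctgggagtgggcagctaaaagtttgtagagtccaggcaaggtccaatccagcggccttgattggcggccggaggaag

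The Smurf2 window holds GTCTG once, beginning 203 bases before the start. The Ltbp1 window holds GTCTG at 64 bases, and CACGT, which overlaps it, at 67 bases before the start. The Tgfbr2 window holds CAGAC at 160 bases before the start. The first window of Tgfbr1 and the window of Smad3 hold none of these motifs, and a second Tgfbr1 window holds CAGAC at 203 bases before its own start. No window of the 5 genes has the 8-base palindrome GTCTAGAC. Of 32851 promoter windows of the same length, 35.8% hold CAGAC on either strand, 12.9% hold ACGTG and 0.155% hold GTCTAGAC. A match is a description of the letters, not a bound site.

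Other genes of the pathway were taken from lists of ligands, latency, receptors, Smads, inhibitors and targets. Outside the 7 genes, 58 of 127 listed genes were measured. Over the hypoxia phase 14 passed as higher and 13 as lower in limma, 46.6% in all beside the 42.4% of all features, and their median log2 ratio was 0.03, as it was for all features. The largest absolute hypoxia mean among them was 0.84, that of Dcn, which is smaller than that of Tgfbr3 and close to that of Pmepa1. Among the 2 ligands, Tgfb2, a TGF-beta isoform, was higher by 0.42 ± 0.15 (SD over 5 days, limma adjusted p = 0.00021).

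Of 8 latency genes, 3 passed as higher and 1 as lower. Dcn, a matrix proteoglycan that binds TGF-beta, was lower (-0.84 ± 0.27, SD over 5 days). Emilin1, which restrains processing of the TGF-beta precursor, was higher (0.49 ± 0.20), as were Mmp2, a matrix protease (0.49 ± 0.42), and Tgm2, a crosslinking enzyme of the matrix (0.34 ± 0.20). Of 6 receptor and co-receptor genes, 2 were higher and 1 lower: Tdgf1, a Nodal co-receptor (0.34), Gipc1, which binds the tail of the Tgfbr3 product (0.22), and Nrp1, a co-receptor that can bind TGF-beta (-0.33). Tdgf1 averaged -0.01 in replicates 1 and 2 and 0.58 in replicates 3 and 4, and Tgm2 averaged 0.57 and 0.12 in the same pairs.

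Of 10 Smads and partners none was higher and 3 were lower: Smad4, the common partner of the receptor-activated Smads (-0.15), the coactivator gene Crebbp (-0.25) and Trim33, a ubiquitin ligase that binds Smads (-0.27). Among 17 inhibitors and feedback genes, 4 were higher and 5 lower. The ubiquitin ligase genes Wwp1 and Nedd4, of the same HECT family as Smurf2, were lower, at -0.51 ± 0.20 and -0.35 ± 0.33 (SD over 5 days, limma adjusted p = 0.00033 and 0.0084). Their relatives Smurf1 (0.04) and Wwp2 (0.08) did not pass (limma adjusted p = 0.52 and 0.16), and Ldlrad4, a relative of Pmepa1, had 0.09 (adjusted p = 0.27). Stub1, a ubiquitin ligase that acts on Smads, was higher (0.38), as were Ppp1r15a (0.22), Fkbp1a (0.16) and Uchl5 (0.12). The other 3 lower genes of this list are known to aid the signal: Usp4 (-0.24), a deubiquitinase that stabilises the type I receptor, Usp15 (-0.12), another deubiquitinase, and Rnf111 (-0.19), a ubiquitin ligase that removes Smad inhibitors.

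Of 15 target genes, 4 were higher and 3 lower. The collagen genes Col3a1, Col1a1 and Col1a2 were higher, by 0.71 ± 0.38, 0.64 ± 0.43 and 0.57 ± 0.35 (SD over 5 days), as was Id3 (0.17). Id2, an inhibitor of differentiation, was lower, at -0.43 ± 0.07, as were Timp3 (-0.23) and Tsc22d1 (-0.23). In these lists Dcn and the collagen genes also stand among the fibroblast and pericyte markers. In recovery 5 of the 58 genes passed, 8.62% beside 4.77% of all features: Skil (0.21), Ppp1r15a (0.21), Id1 (0.23) and Id3 (0.33) as higher and Usp4 (-0.37) as lower. None passed in limma in hypoxia minus recovery, where 20 of the 58 had an unadjusted p under 0.05, beside 1843 of 12159 features. None passed in day 22 minus day 21, where 9 of the 58 had such a p, beside 638 of 12117 features. In day 35 minus day 21 Myc was higher (0.63) and Mmp2 lower (-0.70), with limma adjusted p = 0.0054 and 0.021.

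**Figure D3:**
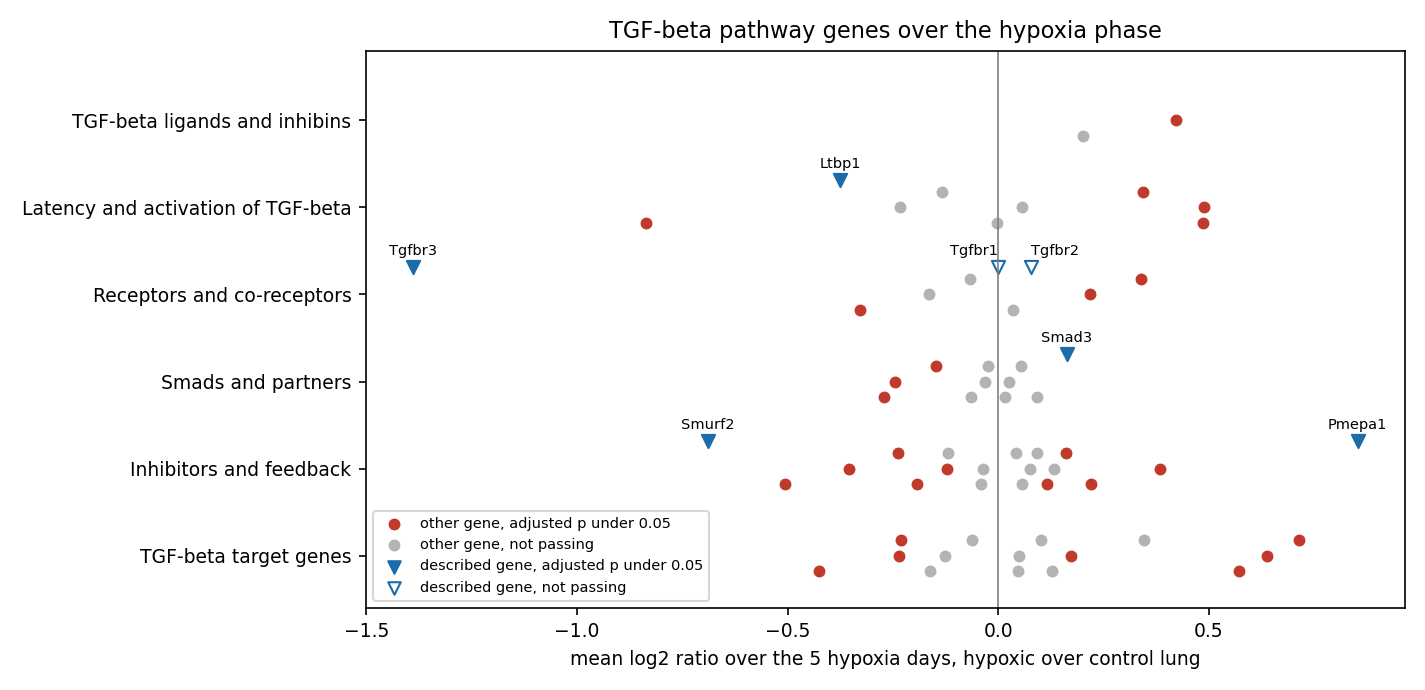
Mean log2 ratio over the 5 hypoxia days (x axis) of each measured gene of the pathway, in rows by role. Triangles are the 7 genes described here and circles the other genes, with filled blue or red for those that passed. Tgfbr3 (-1.39) lies farthest to the left and Pmepa1 (0.85) farthest to the right.

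The 4 genes most like each of the 3 leading genes were found by Pearson r over the 9 day means, among named genes whose day means had an SD of at least 0.5 times that of the gene. For Tgfbr3, among 563 such genes, they were Rmnd5a (r = 0.98), Zfp445 (0.97), Hipk3 (0.97) and Morf4l1 (0.94), each with a hypoxia mean between -0.79 and -0.63. For Pmepa1, among 643, they were Arfgap2 (r = 0.97), Agrn (0.95), Emilin1 (0.95) and Pfkl (0.94). Of these, Emilin1 had the highest hypoxia mean (0.49) and Arfgap2 one of -0.04, so that Arfgap2 shared the rise and fall over the days and not the level. For Smurf2, among 2358, they were Tpp2 (r = 0.96), Rnf141 (0.96), Smarca5 (0.96) and Aasdhppt (0.95). Over single arrays r was lower, from 0.65 to 0.80 for the genes like Tgfbr3, 0.66 to 0.81 for those like Pmepa1 and 0.45 to 0.89 for those like Smurf2. Among the 7 genes, Tgfbr3 and Smurf2 had r = 0.83 over the day means and 0.70 over the 36 arrays, and Tgfbr3 and Pmepa1 had -0.36 and -0.18. All these values come from the same slides and pools, so the points share whatever varied between slides.

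**Figure D4:**
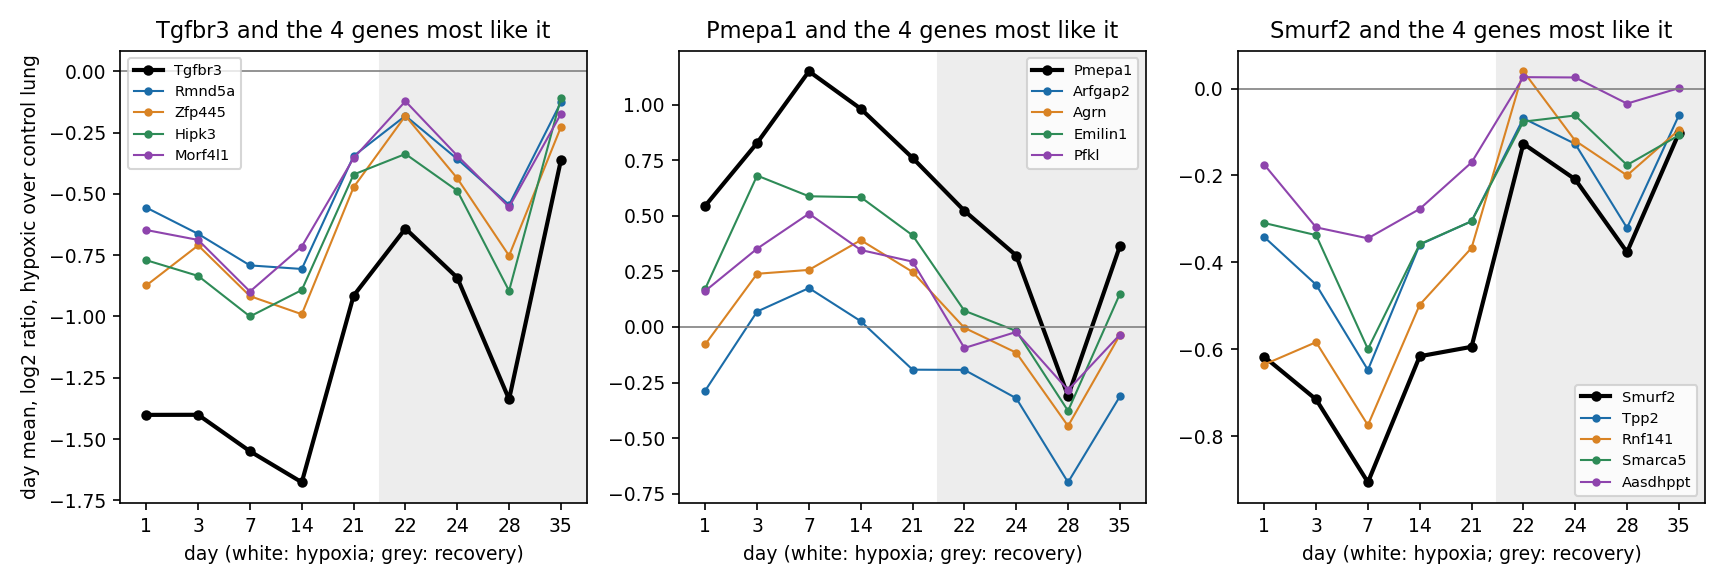
Day means of the log2 ratio (y axis) by day (x axis) for Tgfbr3, Pmepa1 and Smurf2, each in its own panel with the 4 genes whose day means were most like its own. Rmnd5a, Zfp445, Hipk3 and Morf4l1 share with Tgfbr3 the low values at day 28, and Aasdhppt follows Smurf2 at a level nearer to 0.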

How the data were processed

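Per the labels' protocols, lung RNA pools were reverse transcribed, coupled to Cy5 and Cy3 and hybridised together, slides were read with a GenePix scanner, and the authors deposited log2 ratios of median intensities after background correction, removal of flagged spots and lowess normalisation. The deposited log2 values were used without further scaling, without channel intensities. The platform annotation gave 1 symbol to 9598 of 15388 spots, several to 514 and none to 5276. Averaging the 1-symbol spots of each gene within an array left 12761 features. By Entrez identifier all 7 genes were found in RefSeq (GRCm38.p6).

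Moderated linear models were fitted in limma 3.58.1 under R 4.3.3, with 2-sided tests and Benjamini-Hochberg adjustment over all features. Since the labels describe 1 pool per condition and day, phases were fitted on 9 day means (5 hypoxia, 4 recovery) of features with at least 2 arrays at each day. Single days and pairs of days were fitted on 36 arrays, with a mean per day and at least 3 of 4 arrays. The fits were tested on simulated data. Other settings tried were a common spread for all arrays, median centring, requiring all 4 arrays, each spot alone, replicates or days left out, replicate pairs alone, arrays as units and a replicate block. The genes, lists, tests and rules for named genes (up to 4 passing genes a list, largest first, and 4 genes most alike) were chosen with earlier results of these data known. The genes that passed only in recovery or at day 35, Smurf1, Wwp2, Ldlrad4, Usp15, Rnf111 and Id3 were named after their values were seen. The same holds for Ppp1r15a, Fkbp1a, Uchl5, Timp3 and Tsc22d1.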

Additional observations from a re-analysis of the deposited data

Results flagged for a closer look

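Among 77 groups of 4 arrays or of day means that were examined, 5 held a value far from the others of its group. Chance alone marks about 1 in 20 groups. Tgfbr3 at day 21 had replicate 4 at -1.38, while the other 3 arrays lay between -0.77 and -0.76. Smad3 at day 3 had replicate 2 at 0.65, with the next highest at 0.15. Tgfbr2 at day 1 had replicate 1 at -0.23, with the nearest at 0.09. Tgfbr1 at day 24 had replicate 2 at 0.22, with the next at 0.036. Among the recovery day means of Tgfbr2, day 28 was lowest at -0.45, with the nearest at -0.14.

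Smurf2 differed between time points by a test of the difference itself: day 22 exceeded day 21 by 0.47 and day 35 exceeded day 21 by 0.49, each with separate arrays.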

How the results depend on the processing

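The hypoxia means of Tgfbr3, Pmepa1 and Smurf2 kept their direction and passed under every alternative run. The recovery mean of Tgfbr3 no longer passed without day 3 (-0.80), day 22 (-0.85), day 24 (-0.78) or day 28 (-0.62). Scaling to a common spread brought recovery past the threshold for Pmepa1 (0.34) and Smurf2 (-0.25), and Smurf2 also passed in replicates 3 and 4 alone (-0.23) and without day 7 (-0.20). Without day 21 the Smurf2 phase difference passed (-0.51). With the 36 arrays as units, with or without a replicate block, recovery passed for Pmepa1 (0.22) and Smurf2 (-0.20), and the phase differences passed for Tgfbr3 (-0.59), Pmepa1 (0.63) and Smurf2 (-0.49). Such fits treat the arrays of a day as independent, although the labels describe 1 pool per condition and day. Their p measures only the spread between arrays.

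Of the 7 genes, 5 passed over hypoxia, 3 in replicates 3 and 4 alone, and 3 to 5 with 1 replicate left out. The shares of all features that passed in these settings were 42.4%, 52.1% and 37.5% to 44.6%. In recovery, where 1 passed, the number was 0 without day 3, 22, 24 or 28, 2 with all 4 arrays required, in either replicate pair alone, without day 7, without day 35 or without replicate 1 of day 28 (an alternative chosen after seeing the data), 5 with a common spread or with arrays as units, and 6 with arrays as units and the replicate block. Of all features 4.77% passed in recovery, and 0% to 0.107% without day 3, 22, 24 or 28. The share was 7.54% with all 4 arrays required, 9.09% and 13.3% in the pairs, and 4.87% to 5.6% in the other settings with 2 genes. It was 26.3% with a common spread, 33.5% with arrays as units and 42.2% with the block. For the phase difference the number of genes was 1 without day 21, 4 with arrays as units and 5 with the replicate block. The shares of all features there were 1.02%, 16.8% and 24.1%. For day 22 minus day 21 the number of genes was 0 in either pair alone, 0 to 1 with 1 replicate left out, and 2 with the replicate block. Of all features 0.201% and 0.53% passed in the pairs, 0.213% to 0.403% with 1 replicate left out, and 1.15% with the block. For day 35 minus day 21 the number of genes was 0 in replicates 1 and 2 alone, and 2 with a common spread, with all 4 arrays required, with the replicate block or without replicate 1 of day 28. Of all features 0.501% passed in replicates 1 and 2 alone, and 1.2% to 3.33% in the settings with 2 genes.

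Small means changed sign. For Tgfbr1 over hypoxia the value was -0.012 with median centring, -0.022 in replicates 3 and 4 alone, -0.037 without day 1, -0.014 without day 14, -0.0088 without day 21 and -0.075 for spot 1, and -0.026 to 0.024 with 1 replicate left out (-0.0083 without replicate 4). Its phase difference was 0.046 for spot 2. Its day 22 minus day 21 value was 0.086 in replicates 1 and 2, 0.0074 for spot 1 and -0.13 to 0.054 with 1 replicate left out, and its day 35 minus day 21 value was -0.088 in replicates 3 and 4. Smad3 over hypoxia was -0.020 in replicates 3 and 4. Smad3 in recovery was 0.065 in replicates 1 and 2, 0.027 without day 22, and -0.050 to 0.011 with 1 replicate left out. Its day 35 minus day 21 value was -0.016 without replicate 2 or 4, and at most 0.039 with another left out. For Ltbp1 the phase difference was -0.030 without day 28, and day 22 minus day 21 was -0.025 in replicates 3 and 4 and -0.11 to 0.30 with 1 replicate left out. The cause was not tested.

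Over all features, 580 passed in recovery, against 3198 with a common spread, 4069 with arrays as units, 5128 with the replicate block, 13 without day 3, 12 without day 22, 2 without day 28 and 0 without day 24 (limma). For hypoxia minus recovery it was 4, against 2045 with arrays as units, 2933 with the replicate block and 124 without day 21. For day 22 minus day 21 it was 75, ranging from 22 to 139, and for day 35 minus day 21 it was 131, ranging from 56 to 406. No label says what a replicate number shares. In their deviations from the day means, arrays of the same number on different days had a median correlation of 0.38 (127 of 144 pairs over 0.1), against -0.25 for arrays of other numbers (129 of 432), and 16 of 36 arrays were on average closest to their own number. This is a hint from the data, not the design, of something shared by number. Over single days the replicate block raised the calls from 25 to 31, with all 25 shared: it added Smad3 at days 3 and 14, Tgfbr2 at day 3 and Pmepa1 at days 22, 28 and 35. Signal over background was not used here, so depth limits could be given only as the number of arrays.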
